A study of Mus musculus with 139 samples.

Results

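Small RNA libraries of mouse liver were compared with small RNA libraries of mouse pancreas, taken for the most part from the same animals. The count-table columns named Liver gave 13 libraries (animals 1, 2 and 4 to 14). The columns named Pancreas, without Pancreas 11, gave 11 libraries (animals 1 to 9, 12 and 13). These 24 libraries belong to an atlas of normal tissues whose table holds 134 libraries. In 10 animals (1, 2, 4 to 9, 12 and 13) both tissues were sequenced in the same library pool, and the tests below rest on these 10 pairs unless stated otherwise. All animals were wild-type C57BL/6J adults aged 3 months with no treatment. Animals 1 to 10 are marked female in the column names and were sequenced in the pool N467, whereas animals 11 to 14 are marked male and were sequenced in the pool N541, so sex and pool cannot be told apart. Of the matched animals, 8 were in N467 and 2 in N541. Total RNA was isolated from whole tissue kept in RNAlater, so that each library mixes the cell types of the organ, and fewer cells of a type and less RNA per cell cannot be told apart.

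MicroRNAs (miRNAs) are cut from hairpin precursors to strands of about the length of a siRNA, and the strand loaded into Argonaute recognises messenger RNAs mainly through its seed, bases 2 to 8 from the 5′ end. Liver is mostly hepatocytes, cells that make bile, plasma proteins and glucose and that are known for very high levels of miR-122. Pancreas is mostly acinar cells, which secrete digestive enzymes, with ducts that carry the juice and scattered endocrine islets. MiR-216 and miR-217 are known as acinar miRNAs, miR-375 and miR-7 as islet miRNAs, and the miR-200 family as a mark of epithelia that maintains E-cadherin by repressing Zeb1 and Zeb2. Both organs arise from neighbouring parts of the foregut endoderm.

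The results turn mainly on miRNA families whose mature strands are close relatives. RefSeq (GRCm38.p6) gave a mature sequence for 149 of the 172 miRNA genes tested, and those below are shown because their genes differed most between the organs or because near-identical strands differed in opposite directions. Bases are written 5′ to 3′ and the capitals mark the seed.
miR-216a-5p: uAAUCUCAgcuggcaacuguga
miR-216b-5p: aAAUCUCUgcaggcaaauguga
miR-217-5p: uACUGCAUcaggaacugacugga
miR-7a-5p: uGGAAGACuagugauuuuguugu
miR-7b-5p: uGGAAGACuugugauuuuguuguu
miR-200b-3p: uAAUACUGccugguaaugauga
miR-200c-3p: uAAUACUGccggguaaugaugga
miR-429-3p: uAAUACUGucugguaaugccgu
miR-200a-3p: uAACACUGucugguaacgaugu
miR-141-3p: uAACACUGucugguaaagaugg
miR-192-5p: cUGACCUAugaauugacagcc
miR-215-5p: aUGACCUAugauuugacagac
miR-194-5p: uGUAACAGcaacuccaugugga
miR-10a-5p: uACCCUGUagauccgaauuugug
miR-10b-5p: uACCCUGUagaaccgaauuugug
miR-148a-3p: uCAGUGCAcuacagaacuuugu
miR-148b-3p: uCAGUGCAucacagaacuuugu
miR-152-3p: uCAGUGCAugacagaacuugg
miR-103-3p: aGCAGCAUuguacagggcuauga
miR-107-3p: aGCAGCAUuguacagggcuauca
miR-101a-3p: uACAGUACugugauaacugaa
miR-101b-3p: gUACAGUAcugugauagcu
Counting positions from 1 at the 5′ end, miR-10a-5p and miR-10b-5p differ by the single change U12A, outside the seed. MiR-103-3p and miR-107-3p differ by G22C. The changes from miR-148a-3p to miR-148b-3p are C9U and U10C, and those from miR-192-5p to miR-215-5p are C1A, A12U and C20A. The change U4C, inside the seed, separates miR-200b-3p from both miR-200a-3p and miR-141-3p. The RefSeq entry for miR-101b starts 1 base earlier than that for miR-101a, which shifts its capitals.

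The 24 libraries differed widely in depth. Counts per library were 78905 to 13406435 in liver (median 990388) and 13795 to 964665 in pancreas (median 134227), and 3 of the matched animals have a library under 50000 counts. Gene positions are on GRCm38. Levels are given as CPM (library counts brought to a common total) after scaling by the trimmed mean of M-values (TMM), with the lowest, the median and the highest library of each tissue in that order. The scaling factors ran from 0.393 in Liver 4 to 1.57 in Pancreas 9, so scaled levels of a library need not sum to the common total. Levels of Liver 4 are 2.55 times its unscaled CPM, which raises the highest liver value of several genes. For Mir192 the highest liver value was 191670 CPM unscaled and 488833 CPM scaled. Differences are log2 values of liver over pancreas from edgeR's quasi-likelihood test with the animal as a block, and p-values were adjusted by Benjamini-Hochberg. The ± value after a log2 difference is an approximate standard error, the absolute difference divided by the square root of the test's F statistic. A gene was called at an adjusted p below 0.05 and an absolute log2 difference of at least 1. Fits of the pool N541 alone were unpaired, without the animal block, over 4 liver and 2 pancreas libraries. Where levels are given by set of animals (1 to 5, 6 to 10 and 11 to 14), the first 2 sets carry separate ranges of library index numbers within N467 and were formed after seeing the data. P-values measure the spread between these animals, and 1 library stands for each organ of an animal.

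The organs carried the markers of their labels. Summed over 5 hepatocyte markers (Mir122, Mir802, Mir192, Mir194-2 and Mir101b), liver libraries held 106450, 206741 and 591238 CPM and pancreas libraries 2044, 4399 and 7263 CPM. These markers are taken from the 10 genes of the hepatocyte list described below and are not all of it. Mir802 among them was itself higher in pancreas, as was Mir193a of the list's other members. Summed over the 3 acinar markers (Mir216a, Mir216b and Mir217), the values were 0, 0 and 0.587 CPM in liver and 2918, 7253 and 14554 CPM in pancreas. The 5 islet markers (Mir375, Mir7-1, Mir7-2, Mir7b and Mir184), taken from the 12 genes of the islet list described below and not all of it, summed to 134, 229.8 and 373 CPM in liver and 17158, 37878 and 90901 CPM in pancreas. The groups did not overlap for any of these 3 sums.

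Of 334 genes tested, 86 (25.7%) were called higher in liver and 83 (24.9%) higher in pancreas, together 50.6%. In 49 genes (14.7%) no liver library overlapped a pancreas library, and each of these was called. The median log2 difference over all genes tested was 0.10. Among 172 miRNA genes, 62 were higher in liver, 45 higher in pancreas and 65 passed neither call. Without the animal block and with all 24 libraries, 388 genes were tested, 136 were called higher in liver and 97 higher in pancreas. Scaling by library totals instead of TMM moved the median over all genes by -0.63 and changed the split to 44 higher in liver and 101 higher in pancreas, so small differences are read below against that shift.

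**Figure D1:**
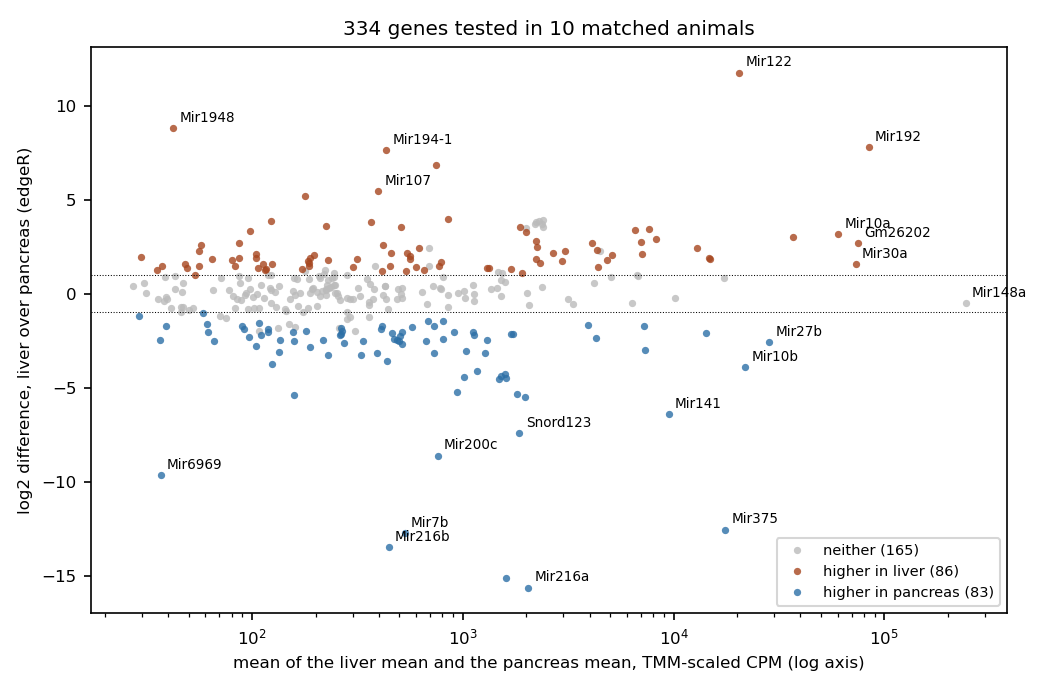
Log2 difference of liver over pancreas (vertical axis, from edgeR) against the mean of the liver and pancreas levels in TMM-scaled CPM (horizontal log axis), 1 point for each of 334 genes; the dotted lines mark 1 and -1. The 86 genes called higher in liver and the 83 called higher in pancreas spread over most of the range of levels, Mir122 is at the top, and the points for Mir216a, Mir216b, Mir217, Mir7b, Mir6969 and Mir1948 rest on fitted values of genes with 0 to 2 counts in 1 tissue.

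Of 10 hepatocyte miRNA genes on a list chosen for this tissue, 7 were higher in liver, 2 higher in pancreas and 1 passed neither call, where 25.7% and 24.9% of all genes were called in these directions. The list's median log2 difference was 5.36, or 4.91 with the gene that had no count in pancreas set at its lower bound, against 0.10 over all genes. Mir122, which in hepatocytes represses genes outside the liver programme and supports lipid metabolism, had 15476, 26582 and 88560 CPM in liver and 0, 5.03 and 58.4 CPM in pancreas. Every liver library lay far above every pancreas library. The log2 difference was 11.75 ± 0.80 (edgeR adjusted p = 3.07e-08), with liver higher in 10 of 10 animals. Within liver, the level varied by set of animals, with medians of 19728 CPM in animals 1 to 5, 25229 CPM in animals 6 to 10 and 73846 CPM in animals 11 to 14.

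Mir192 (chr19:6264844-6264932), one of the most counted liver miRNAs, had 72141, 134814 and 488833 CPM in liver and 350.4, 605 and 1284 CPM in pancreas. No library of one tissue reached the other, although Mir192 was counted in every pancreas library. The log2 difference was 7.78 ± 0.45 (edgeR adjusted p = 4.15e-09). Mir194-2 (chr19:6264643-6264728), its neighbour on the same strand, stood at 301, 1463 and 2930 CPM in liver and 0, 0 and 55.7 CPM in pancreas, a log2 difference of 6.86 ± 0.69. The other copy, Mir194-1 (chr1:185313319-185313385), stood at 117, 733 and 1797 CPM and 0, 0 and 13.9 CPM, a log2 difference of 7.64 ± 0.54. The copies make the same mature strand, shown above once, so how reads were divided between them depends on the authors' counting.

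Mir194-1 has as its neighbour Mir215, whose mature strand shares the seed of miR-192. Mir215, known from intestinal epithelium, was below the filter of the test. It had 10.9, 23.3 and 145 CPM in liver and 0, 0 and 1.47 CPM in pancreas, where it received 1 count in all 11 libraries together. Unscaled and pooled, liver over pancreas was 94.2 for Mir215, with an exact 95% interval for counting error alone of 16.9 to 3722. Liver thus carried the miR-192 seed from both loci, and pancreas at a low level from Mir192.

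Mir1948 lies in an intron of Ttc39c and had 27.3, 60.6 and 252 CPM in liver and no count in any pancreas library. Against a floor of 3 counts over the pooled pancreas libraries it was at least 62.2-fold higher in liver (edgeR adjusted p = 0.000659). Mir1948 passed the filter through liver alone, so its call and p-value are no separate support. Mir455, in an intron of the collagen gene Col27a1, had 53.2, 139.8 and 1112 CPM in liver and 0, 5.47 and 64.8 CPM in pancreas, and the tissues overlapped (log2 3.86 ± 0.75). Outside the list, Mir351 (chrX:53053255-53053353) had 83.5, 381 and 524 CPM in liver and 0, 8.52 and 44.2 CPM in pancreas without overlap (log2 5.21 ± 0.66). Its cluster partner Mir322 was also called (log2 1.90 ± 0.60), although under library totals it lost its call (edgeR adjusted p = 0.155).

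Both hepatocyte-list miRNAs that were higher in pancreas are known regulators in liver. Mir802 (chr16:93369720-93369816), linked in liver to glucose metabolism, had 118, 491 and 766 CPM in liver and 708, 1227 and 5017 CPM in pancreas. Pancreas was higher in 10 of 10 animals, with a narrow overlap between the highest liver and the lowest pancreas library. The log2 difference was -2.45 ± 0.42 (edgeR adjusted p = 0.000225). In pancreas it followed the sets of animals, with medians of 1121 CPM in animals 1 to 5, 3925 CPM in animals 6 to 9 and 1210 CPM in animals 12 and 13. Within animals 1, 2, 4 and 5 alone the difference was -1.38 (edgeR adjusted p = 0.135), and within animals 6 to 9 alone it was -3.25 (0.000211). Mir193a was nearer the threshold, at -1.98 ± 0.72 (edgeR adjusted p = 0.0318). Its call was lost when any of animals 1, 2, 4, 5 or 6 was left out, with an adjusted p of up to 0.0623.

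**Figure D2:**
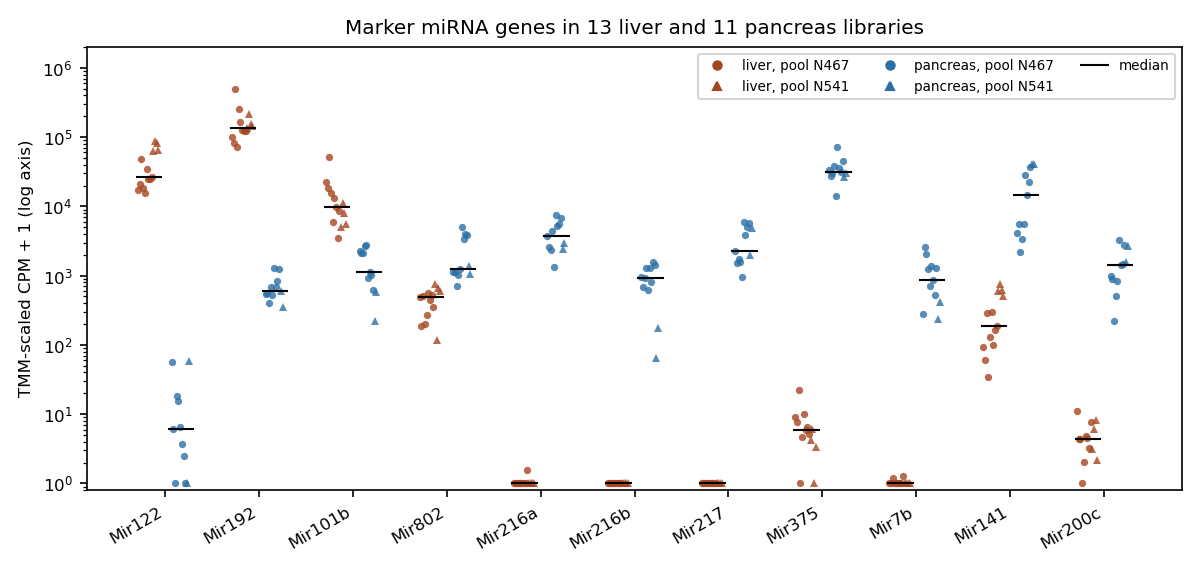
Levels of 11 marker miRNA genes as TMM-scaled CPM + 1 on a log axis; each point is 1 library, circles the pool N467, triangles the pool N541, and the bar the median of 13 liver or 11 pancreas libraries. Mir122, Mir192 and Mir101b separate liver above pancreas, Mir216a, Mir216b, Mir217, Mir375, Mir7b, Mir141 and Mir200c separate pancreas above liver, and Mir802 is higher in pancreas with a narrow overlap.

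The acinar miRNAs were close to absent from liver. All 3 tested members of the acinar list were called higher in pancreas, and the other member, Mir216c, had no count in any of the 24 libraries. Their median log2 difference was -15.29 with each gene at its pooled ratio or bound. Mir217 (chr11:28763728-28763835) and Mir216a (chr11:28757012-28757083) lie in introns of the long non-coding gene Gm12082, with Mir216b (chr11:28746191-28746276) upstream on the same strand.

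Mir217 had 969, 2264 and 5853 CPM in pancreas and no count in any liver library, at least 40160-fold higher in pancreas (edgeR adjusted p = 3.18e-05). Mir216b had 63.7, 929 and 1575 CPM in pancreas and no count in liver either, at least 12770-fold higher (edgeR adjusted p = 5.17e-05). Mir216a had 1329, 3786 and 7405 CPM in pancreas and 2 counts in all 13 liver libraries together. Its pooled ratio of pancreas over liver was 78140, with an exact 95% interval for counting error alone of 21630 to 645300 (edgeR adjusted p = 3.04e-05). Mir216a, Mir216b and Mir217 passed the filter through pancreas alone, so their calls and p-values are no separate support. In pancreas the sets of animals fell in the same order for Mir216a as for Mir802, with medians of 2589 CPM in animals 1 to 5, 6244 CPM in animals 6 to 9 and 2706 CPM in animals 12 and 13.

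Mir6969 (chr17:28558441-28558501) was on no list and is named because it was 1 of 3 tested genes with no count in liver. It lies in an intron of Clps, which encodes colipase, the cofactor of pancreatic lipase secreted by acinar cells. Its level was 31.8, 60.3 and 137 CPM in pancreas, at least 1077-fold higher than in liver (edgeR adjusted p = 0.000127). Since it was picked for its lack of counts in liver and passed the filter through pancreas alone, this bound and p-value restate that choice and are no separate support.

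Of 12 islet and endocrine miRNA genes listed, 6 could be tested, of which 5 were higher in pancreas and 1, Mir335, higher in liver, with a median log2 difference of -4.89. Mir375 (chr1:74900658-74900721), a regulator of insulin secretion and of alpha and beta cell mass, was among the 10 most counted genes of pancreas. Liver libraries held 0, 4.95 and 21.5 CPM and pancreas libraries 14340, 31871 and 71440 CPM. Liver stayed near 0 while every pancreas library was far above it (log2 -12.55 ± 0.62, edgeR adjusted p = 7.34e-10).

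Mir7-1, Mir7-2 and Mir7b share the seed of the miR-7 strands shown above, and miR-7 is known to restrain mTOR signalling in beta cells. Mir7b had 239, 871 and 2579 CPM in pancreas and 2 counts in all liver libraries, a pooled ratio of 17760 with an exact 95% interval of 4912 to 146700. The 2 genes for miR-7a differed less. Mir7-1, in an intron of the ubiquitously used gene Hnrnpk, had 50.1, 123 and 173 CPM in liver and 621, 2212 and 8914 CPM in pancreas (log2 -4.29 ± 0.46). Mir7-2 had 67.3, 86.6 and 167 CPM and 461, 2233 and 8837 CPM (log2 -4.38 ± 0.49), and since both make the same strand their counts cannot be assigned to 1 gene with certainty. Thus liver carried a low, steady level of miR-7a and close to none of miR-7b, whereas pancreas carried both.

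Mir184 had 0, 6.67 and 20 CPM in liver and 70.7, 319.7 and 716 CPM in pancreas, without overlap (log2 -5.40 ± 0.52, edgeR adjusted p = 1.34e-06). Mir153, an islet and brain miRNA below the filter, had 19.6, 63.7 and 262 CPM in pancreas and 1 count in liver, a pooled ratio of 3980 with an exact 95% interval of 709 to 157700. Mir204 had 0, 0.953 and 150.3 CPM in liver and 11, 119 and 1285 CPM in pancreas and was not tested. Mir132 and Mir212, also below the filter, had medians of 9.64 and 4.4 CPM in liver and 5.5 and 0 CPM in pancreas. Mir335, in an intron of the imprinted gene Mest, ran the other way with 66.6, 172 and 241 CPM in liver and 0, 44 and 97.4 CPM in pancreas (log2 2.10 ± 0.48, edgeR adjusted p = 0.00219).

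All 5 members of the epithelial miR-200 family were higher in pancreas, with a median log2 difference of -5.49. Summed, they came to 66.8, 396 and 1123 CPM in liver and 4312, 23935 and 56585 CPM in pancreas. The genes form 2 clusters. Mir200c (chr6:124718322-124718390) and Mir141 (chr6:124717914-124717985) lie in introns of Gm15884, whereas Mir200b, Mir200a and Mir429 lie in introns of Ttll10 on chromosome 4.

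Mir200c, of the seed shared with miR-200b and miR-429, had 0, 3.42 and 10.1 CPM in liver and 221, 1420 and 3290 CPM in pancreas (log2 -8.61 ± 0.61). Mir141, its neighbour with the other seed, had 33.4, 186 and 747 CPM in liver and 2189, 14473 and 41104 CPM in pancreas (log2 -6.40 ± 0.54, edgeR adjusted p = 3.33e-07). Liver therefore held some Mir141 where Mir200c was close to 0, and the tissues overlapped for neither gene. From the other cluster, Mir200b had 0, 81.6 and 245 CPM in liver and 884, 2665 and 10078 CPM in pancreas (log2 -5.49 ± 0.62). Mir200a differed by -5.34 ± 0.60 and Mir429 by -3.74 ± 0.58, both without overlap. In pancreas the family varied strongly by set of animals: the median of Mir141 was 4182 CPM in animals 1 to 5, 25521 CPM in animals 6 to 9 and 41020 CPM in animals 12 and 13.

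The sensory and epithelial miR-183 cluster followed the same direction. Mir182 had 401, 1392 and 5168 CPM in liver and 6975, 11358 and 20620 CPM in pancreas, without overlap (log2 -2.98 ± 0.40, edgeR adjusted p = 2.85e-05). Mir183 differed by -2.14 ± 0.48 and overlapped between the tissues, and in animals 1, 2, 4 and 5 alone its difference was -0.49 (edgeR adjusted p = 0.614). Mir96, below the filter, had 0, 8.18 and 15.1 CPM in liver and 0, 357 and 803 CPM in pancreas. Mir203, a miRNA of stratified epithelium, was instead higher in liver (log2 2.42 ± 0.51).

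The p53 target Mir34a (chr4:150068454-150068555) had 33.4, 108 and 332 CPM in liver and 698, 1990 and 5080 CPM in pancreas, and the tissues did not overlap (log2 -4.10 ± 0.39, edgeR adjusted p = 1.34e-06). Mir219a-1 had 0, 18.4 and 69.6 CPM in liver and 315, 832 and 8000 CPM in pancreas, again without overlap (log2 -5.26 ± 0.81). The copy Mir219a-2 was below the filter, at 0, 0.247 and 16.7 CPM in liver and 0, 2.93 and 63.7 CPM in pancreas.

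**Figure D3:**
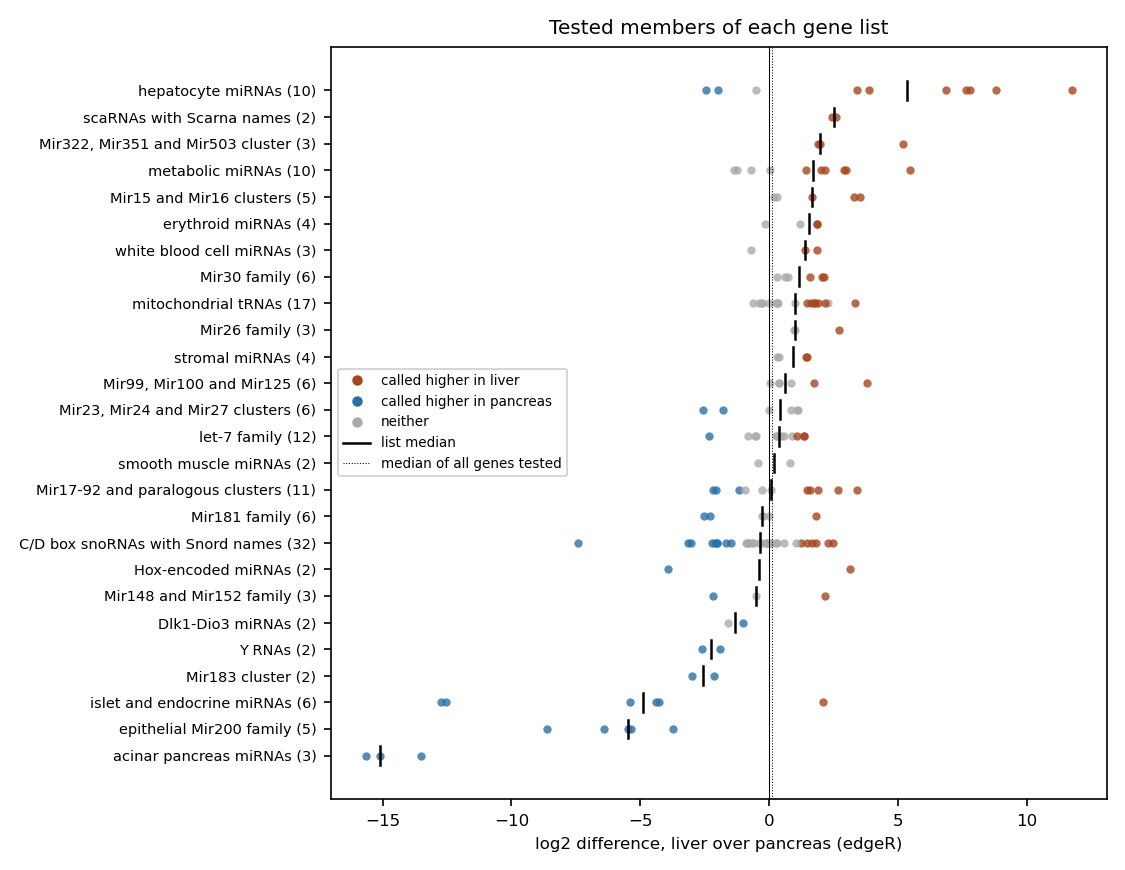
Log2 difference of liver over pancreas (horizontal axis, from edgeR) of every tested member of 26 gene lists with at least 2 tested members, the number tested in brackets; each point is 1 gene, coloured by its call, and the bar is the list's median. The acinar, miR-200 and islet lists lie at the pancreas end apart from Mir335, 7 of 10 hepatocyte miRNAs lie at the liver end, and several families have members on both sides.

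Some families of shared seed had members called in each direction. Among tested miRNA genes with a RefSeq mature strand, 26 seed families had at least 2 members, counted once for each distinct set of genes. Of these, 13 had calls for liver only, 6 for pancreas only, 2 had none and 5 had calls in both directions, which library totals reduced to 3 by ending the liver calls of the Mir181 and let-7 families. Those 5 were the pair Mir10a and Mir10b, the Mir148 and Mir152 family, the Mir181 family, the let-7 family, and the family of Mir25, Mir32, Mir92-1 and Mir92-2. A gene could stand in more than 1 family, since either arm could give the shared seed. The miR-200 genes formed several of the families with calls for pancreas only, with Mir200a and Mir200b each in more than 1. Over all genes tested, 25.7% were called higher in liver and 24.9% higher in pancreas, so a family can hold both calls at these rates alone. Whether 5 of 26 families is more or less than these rates give was not tested.

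The 2 miR-10 genes, which lie in Hox gene clusters and mark position along the body axis, gave the clearest exchange. Mir10a (chr11:96317165-96317274), in the Hoxb cluster, had 55355, 92531 and 234305 CPM in liver and 6949, 9617 and 27910 CPM in pancreas. It was higher in liver in 10 of 10 animals without overlap (log2 3.15 ± 0.40, edgeR adjusted p = 1.83e-05). Mir10b (chr2:74726070-74726137), in the Hoxd cluster within introns of Hoxd3 and Hoxd4, had 502, 2073 and 14978 CPM in liver and 22107, 33122 and 76463 CPM in pancreas. It was higher in pancreas in 10 of 10 animals, again without overlap (log2 -3.92 ± 0.61, edgeR adjusted p = 0.000106). The liver level of Mir10b was not even across animals, with a median of 9390 CPM in animals 1 to 5, 2044 CPM in animals 6 to 10 and 1303 CPM in animals 11 to 14. In animals 1, 2, 4 and 5 alone its difference was -1.64 (edgeR adjusted p = 0.108), against -4.59 in animals 6 to 9 alone (9.16e-05). The strands differ only by U12A, so the counts rest on reads placed by that base.

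In the Mir148 and Mir152 family, whose 3 strands share 1 seed, Mir148b was called higher in liver, Mir152 higher in pancreas and Mir148a passed neither call. Mir148a (chr6:51269812-51269910), known in both organs and also as a repressor of the DNA methyltransferase Dnmt1, had the highest mean level in each tissue, although Mir192 and Mir30a had higher medians in liver. It had 41299, 105093 and 641862 CPM in liver and 121768, 277589 and 448635 CPM in pancreas, and the tissues overlapped. The log2 difference was -0.51 ± 0.49 (edgeR adjusted p = 0.429) and passed neither call, with 5 animals higher in liver and 5 higher in pancreas. Under library totals it was -1.19 (edgeR adjusted p = 0.0226).

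Mir148a varied by set of animals in both organs. In liver its medians were 498384 CPM in animals 1 to 5, 105093 CPM in animals 6 to 10 and 44220 CPM in animals 11 to 14. In pancreas they were 303302 CPM, 263245 CPM and 219615 CPM in the same order. The tissue with the higher level thus changed between sets. Mir148b, in an intron of Copz1, had 904, 2212 and 15213 CPM in liver and 265, 568 and 2880 CPM in pancreas (log2 2.18 ± 0.68, edgeR adjusted p = 0.0146). In the unpaired fit of the pool N541 alone the difference of Mir148b was -0.29 (edgeR adjusted p = 0.42). Mir152, in an intron of the paralogous gene Copz2, had 282, 573 and 2075 CPM in liver and 1554, 2831 and 4567 CPM in pancreas and was higher in pancreas in 9 of 10 animals (log2 -2.17 ± 0.44, edgeR adjusted p = 0.000871).

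The 2 genes of miR-101, a repressor of the histone methyltransferase Ezh2, also parted. Mir101b, in an intron of Rcl1 (chr19:29135279-29135375), had 3456, 9898 and 51935 CPM in liver and 223, 1114 and 2767 CPM in pancreas without overlap (log2 3.43 ± 0.38, edgeR adjusted p = 6.13e-06). Mir101a (chr4:101346945-101347027) had 1672, 4116 and 15238 CPM in liver and 3517, 8408 and 11624 CPM in pancreas, overlapping widely (log2 -0.49 ± 0.32, edgeR adjusted p = 0.228). Under library totals Mir101a was called higher in pancreas, at -1.15 (edgeR adjusted p = 0.00543).

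MiR-103 and miR-107, encoded in introns of the pantothenate kinase genes Pank1, Pank2 and Pank3 and known to lower insulin sensitivity, kept 1 direction but not 1 size. Mir107, in Pank1, had 418, 662 and 2130 CPM in liver and 0, 13.5 and 32.3 CPM in pancreas (log2 5.47 ± 0.50, edgeR adjusted p = 8.52e-07). Mir103-1, in Pank3, had 476, 762 and 2942 CPM in liver and 66.3, 165 and 417 CPM in pancreas (log2 2.17 ± 0.38). Mir103-2, in Pank2, differed by 1.99 ± 0.37, and no library of one tissue reached the other for any of the 3 genes. The difference between these differences was not tested. Mir103-1 and Mir103-2 make the same strand and miR-107 differs from it only by G22C, so how reads were divided among the 3 genes depends on the authors' counting.

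Calls also differed among genes of a single primary transcript. Of the 6 miRNAs in Mir17hg, the host of the oncogenic Mir17-92 cluster, Mir17, Mir20a and Mir92-1 were higher in liver, Mir18 and Mir19b-1 higher in pancreas, and Mir19a passed neither call (log2 -0.95 ± 0.63). Mir92-1 had 4032, 10488 and 26341 CPM in liver and 334, 920.1 and 3443 CPM in pancreas without overlap (log2 3.39 ± 0.54, edgeR adjusted p = 0.000118). Mir19b-1 had 97.6, 341 and 1208 CPM in liver and 589, 1990 and 2905 CPM in pancreas and was higher in pancreas in 10 of 10 animals (log2 -2.18 ± 0.36, edgeR adjusted p = 0.000159). Mir17 and Mir20a were smaller, at 1.57 ± 0.60 and 1.88 ± 0.64, and both lost their calls under library totals (edgeR adjusted p = 0.263 and 0.131). Mir17 also lost it without animal 1, 4, 7, 8 or 12 (edgeR adjusted p of up to 0.0729) and Mir20a without animal 7 (0.0503). Mir18 was at -1.18 ± 0.43 and lost its call when animal 2, 6, 9, 12 or 13 was left out, with an adjusted p of up to 0.172. Mir19b-1 and Mir92-1 each have a copy on the X chromosome, with differences of the same sign: Mir92-2 by 2.68 ± 0.57 and Mir19b-2 by -2.05 ± 0.33. Mir19b-1 and Mir19b-2 make the same strand, so their counts cannot be assigned to Mir17hg with certainty. How reads were divided between Mir92-1 and its copy Mir92-2 likewise depends on the authors' counting. Mir32, of the miR-92 seed, was -1.70 ± 0.66 and lost its call without animal 2, 5, 6, 9 or 12 (edgeR adjusted p of up to 0.128). Over all 11 tested genes of these clusters, 5 were higher in liver and 3 higher in pancreas, and under library totals 2 and 4. Of all genes tested, 25.7% were called higher in liver and 24.9% higher in pancreas.

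At the miR-23, miR-27 and miR-24 locus on chromosome 13, 1 of 3 genes was called. Mir27b (chr13:63300712-63300784), a regulator of lipid genes, had 1338, 6545 and 16370 CPM in liver and 13800, 27866 and 164852 CPM in pancreas and was higher in pancreas in 10 of 10 animals (log2 -2.56 ± 0.41, edgeR adjusted p = 0.000114). Mir23b and Mir24-1 of the same locus had differences of 0.87 ± 0.44 and 1.14 ± 0.51 and passed neither call (edgeR adjusted p = 0.115 and 0.0784). Mir24-1 was called higher in liver in the fit without the animal block, at 1.37 (edgeR adjusted p = 0.00494). How reads were divided between Mir24-1 and its copy Mir24-2 depends on the authors' counting. Mir27a, of the paralogous cluster, was higher in pancreas by a log2 difference of -1.77 ± 0.40. Of 6 tested genes of these clusters 2 were higher in pancreas, none higher in liver and 4 neither. The shares over all genes were 24.9% higher in pancreas and 25.7% higher in liver.

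**Figure D4:**
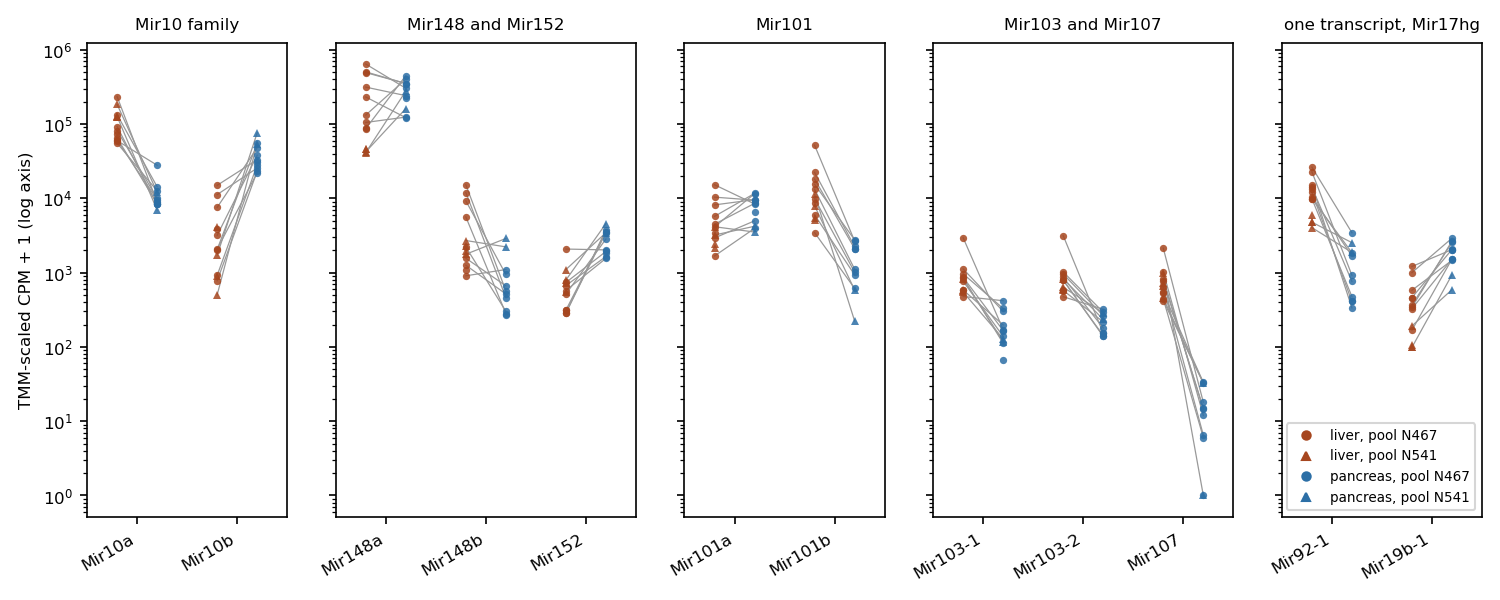
Levels of miRNA genes of 4 families, and of a pair from the transcript Mir17hg, as TMM-scaled CPM + 1 on a log axis; each point is 1 library, grey lines join the tissues of 1 animal, circles are the pool N467 and triangles the pool N541. Mir10a falls and Mir10b rises from liver to pancreas in all 10 pairs, Mir148a shows no single direction, and Mir107 falls further than Mir103-1 and Mir103-2.

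On the list of metabolic miRNAs, 6 of 10 tested genes were higher in liver and none higher in pancreas, against 25.7% and 24.9% of all genes, with a median log2 difference of 1.72 against 0.10. The 4 that passed neither call were the Mir29 genes, of which 3 were called higher in pancreas under library totals and 1 with DESeq2 size factors. Mir21a, a growth-associated miRNA in an exon of Vmp1, had 22642, 46272 and 329909 CPM in liver and 3096, 5968 and 35577 CPM in pancreas (log2 2.99 ± 0.51, edgeR adjusted p = 0.000187). Mir22 had 3682, 15557 and 26750 CPM in liver and 694, 1769 and 2837 CPM in pancreas without overlap (log2 2.92 ± 0.48). Mir378a, in an intron of the mitochondrial regulator Ppargc1b, was 1.44 ± 0.35, and 0.80 under library totals (edgeR adjusted p = 0.0749).

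Mir30a was among the 10 most counted genes of both organs, at 14337, 109139 and 273812 CPM in liver and 6302, 31709 and 64932 CPM in pancreas. Liver was higher in 10 of 10 animals, yet the tissues overlapped. Its liver median was 24147 CPM in animals 1 to 5, 105833 CPM in animals 6 to 10 and 185711 CPM in animals 11 to 14, against 9891, 50506 and 32850 CPM in pancreas. The log2 difference was 1.58 ± 0.43 (edgeR adjusted p = 0.00651), and 0.95 under library totals, where the call was lost (edgeR adjusted p = 0.0925). Mir30e and Mir30d were 2.13 ± 0.42 and 2.06 ± 0.44, and the other 3 tested Mir30 genes passed neither call. Of the Mir26 family, Mir26b, in an intron of Ctdsp1, was higher in liver (2.72 ± 0.46) and both Mir26a genes passed neither call.

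Mir16-1 and Mir16-2, which make the same strand, were 3.30 ± 0.52 and 3.52 ± 0.52, and neither overlapped between tissues. Among the 12 named for the largest differences towards liver were also Mir130a (3.97 ± 0.46), Mir100 (3.79 ± 0.50) and Mir31 (3.60 ± 0.51), each without overlap. Mir99b, of the same seed as Mir100, was 1.76 ± 0.45. In the let-7 family, 3 of 12 tested genes were higher in liver, 8 passed neither call, and 1, Mirlet7i, was higher in pancreas; under library totals none was higher in liver and 3 were higher in pancreas. Mirlet7i had 476, 1245 and 4356 CPM in liver and 2602, 6407 and 17752 CPM in pancreas (log2 -2.35 ± 0.37, edgeR adjusted p = 0.000108), while Mirlet7g was 1.10 ± 0.35 and lost its call under library totals (edgeR adjusted p = 0.341). Of 6 Mir181 genes, Mir181b-1 (-2.53 ± 0.40) and Mir181b-2 (-2.30 ± 0.37) were higher in pancreas and Mir181c (1.83 ± 0.47) higher in liver, where it lost its call under library totals (edgeR adjusted p = 0.0801). Over all genes tested, 25.7% were called higher in liver and 24.9% higher in pancreas, and the let-7 share higher in liver was near that value.

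Markers of blood, vessel and connective tissue cells were present in both organs. Mir126a, the endothelial miRNA within Egfl7, had 4648, 6276 and 58307 CPM in liver and 272, 1246 and 3101 CPM in pancreas, without overlap (log2 2.75 ± 0.56, edgeR adjusted p = 0.000989). Mir486, an erythroid miRNA, had 4072, 14454 and 98579 CPM in liver and 1612, 4798 and 23035 CPM in pancreas (log2 1.87 ± 0.44). Mir3107 gave almost the same values (1.87 ± 0.45), but overlaps it on the opposite strand, so the pair counts as 1 signal. The other 2 tested erythroid genes passed neither call.

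The white blood cell miRNA Mir142 had 200.4, 876 and 1128 CPM in liver and 66.3, 142 and 1889 CPM in pancreas (log2 1.85 ± 0.56, edgeR adjusted p = 0.0122). Pancreas 5 held the highest pancreas value of Mir142, and without animal 5 the difference was 2.20. Under library totals the call was lost (edgeR adjusted p = 0.111). Mir150, a lymphocyte miRNA, passed neither call at -0.71 ± 0.75 (edgeR adjusted p = 0.488), and Mir146b, induced by inflammatory signals, was 1.41 ± 0.49. Mir146b lost its call without animal 7, 8 or 9 (edgeR adjusted p of up to 0.0597) and under library totals (0.282). The sum of 4 white blood cell markers (Mir142, Mir150, Mir155 and Mir223) was 234, 1054 and 1223 CPM in liver and 84.9, 216 and 2354 CPM in pancreas, with Pancreas 5 at the top.

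The smooth muscle miRNA Mir143 was among the 10 most counted genes of pancreas and passed neither call, at 13451, 17519 and 35164 CPM in liver and 2470, 15273 and 24968 CPM in pancreas (log2 0.82 ± 0.42, edgeR adjusted p = 0.117). Of 4 stromal miRNAs, Mir199a-1 (1.45 ± 0.50) and Mir214 (1.48 ± 0.54) were higher in liver and 2 passed neither call; both calls were lost under library totals (edgeR adjusted p = 0.202 and 0.211). Mir199a-1 also lost it without animal 2 or 4 (edgeR adjusted p of up to 0.0634), and Mir214 without animal 1, 2, 4, 6, 12 or 13 (up to 0.0816). The 6 stroma and smooth muscle markers (Mir143, Mir145a, Mir199a-1, Mir199a-2, Mir199b and Mir214) summed to 14352, 18449 and 39010 CPM in liver and 3651, 16219 and 26221 CPM in pancreas. Skeletal muscle markers (Mir1a-1, Mir1a-2, Mir133a-1, Mir133a-2 and Mir206) summed to 0, 5.15 and 11.1 CPM in liver and 0, 121 and 464 CPM in pancreas, and none passed the filter. The highest of these sums was in Pancreas 3, which has no matched liver. Mir206 was at 0 in every liver library and at 1 count in all pancreas libraries. The neuronal markers Mir124a-1, Mir124a-2 and Mir9-2 summed to 0, 0.88 and 117 CPM in liver, the highest in the shallow Liver 5, and 0, 0 and 13.9 CPM in pancreas. None of the 13 listed neuronal genes passed the filter, and others of them had higher medians in pancreas, such as Mir138-2 (0 CPM in liver and 11 CPM in pancreas) and Mir218-2 (0.293 and 5.03 CPM). The part of these cells in the differences between the organs was not tested.

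Other small RNAs made up the rest of the counts. MiRNA genes took 65.6 to 93.3% of the counts in liver (mean 79.1% ± 9.85 SD, n = 13) and 68.9 to 89.7% in pancreas (mean 82.2% ± 7.48 SD, n = 11). Within animals the miRNA share differed by -3.29 points on average (exact two-sided sign-flip permutation test over 10 animals, p = 0.494, adjusted over 7 RNA classes 0.656). The shares of snoRNA, tRNA, mitochondrial tRNA and snRNA did not pass this test either, with adjusted exact permutation p from 0.656 to 0.777.

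The class of miscellaneous RNAs, which holds the Y RNAs and 7SL-like genes, took a larger share in pancreas in each of the 10 animals. It was 0.00804, 0.0287 and 0.0681% of counts in liver and 0.0257, 0.171 and 0.247% in pancreas. The exact sign-flip permutation test gave p = 0.00195, the smallest that 10 animals allow, and 0.0137 adjusted over the 7 classes. In the 7 animals without a library under 50000 counts the mean difference was -0.129 points against -0.127 in all 10. The exact permutation p was 0.0156, the smallest 7 animals can give, and 0.109 adjusted over 7 classes. It could have passed only if other classes had also reached that smallest p. Of the 6 tested genes of the class, all but Vaultrc5, a vault RNA, were higher in pancreas. In animals 6 to 9 alone 2 of the 6 were called higher in pancreas, and with no filter on low counts 1 was. In animals 9 and 13, 4 of the 6 had the higher level in liver. Rn7s1 was at 0 CPM in the pancreas libraries of N541, where the liver median was 16.6 CPM. Rny1, a Y RNA that binds the Ro60 protein, had 15.4, 69.6 and 214 CPM in liver and 111, 328 and 1071 CPM in pancreas (log2 -2.62 ± 0.42, edgeR adjusted p = 0.000114). Rny3 was -1.89 ± 0.48. Rn7s1 and Rn7s2, the RNA of the signal recognition particle that guides secreted proteins to the endoplasmic reticulum, were -2.04 ± 0.63 and -1.74 ± 0.64. Rn7s1 and Rn7s2 are near-identical copies, and Rn7s2 lost its call without animal 1, 2, 4, 5, 6, 7, 8 or 12, with an adjusted p of up to 0.0779.

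Small Cajal body RNAs (scaRNAs), which guide modification of spliceosomal RNAs, had a larger share in liver in 8 of 10 animals, at 0.291, 1.19 and 4.94% in liver and 0.126, 0.317 and 1.53% in pancreas (exact sign-flip permutation test, p = 0.0117, adjusted 0.041). Both matched animals of the pool N541 had the larger share in pancreas, and all 8 of N467 in liver. The difference in share between the pools was not tested. The mean difference was 1.26 points in all 10 animals and 1.27 points in the 7 without a library under 50000 counts. In those 7 animals the adjusted exact permutation p was 0.109. All 4 tested scaRNA genes were higher in liver. Scarna17 had 2364, 14695 and 78573 CPM in liver and 815, 2500 and 12205 CPM in pancreas (log2 2.44 ± 0.67, edgeR adjusted p = 0.00697). Scarna6, in an intron of Atg16l1, was 2.60 ± 0.34, and Gm25395 and Gm25443 were 1.35 ± 0.45 and 1.77 ± 0.51. In the unpaired fit of the pool N541 alone, Scarna17 was -0.069 (edgeR adjusted p = 0.853) and Gm25395 was -0.44 (0.555). Both matched animals of N541 had the higher level of Gm25395 in pancreas, and all 8 of N467 in liver. Gm25395 lost its call without animal 7 (edgeR adjusted p = 0.0578) and, like Gm25443, under library totals (0.214 and 0.0841).

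**Figure D5:**
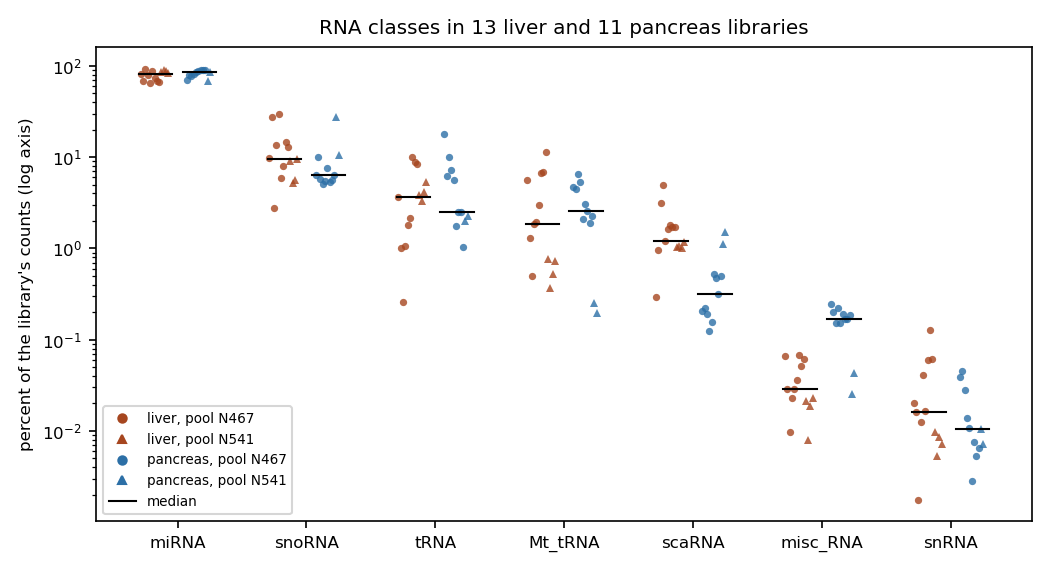
Share of each library's counts in 7 RNA classes, in percent on a log axis; each point is 1 library, circles the pool N467, triangles the pool N541, and the bar the median of 13 liver or 11 pancreas libraries. The miscellaneous RNAs lie mostly higher in pancreas and the scaRNAs mostly higher in liver, and the 2 pancreas libraries of the pool N541 reach the liver values in both classes.

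Box C/D small nucleolar RNAs (snoRNAs) guide 2′-O-methylation of ribosomal RNA. Of 49 tested genes in the snoRNA class, 11 were higher in liver, 13 higher in pancreas and 25 passed neither call, shares near the 25.7% and 24.9% over all genes. Among 32 tested genes with Snord names the counts were 6 and 9, and under library totals 3 and 13. Snord123 (chr15:32241853-32241923), in an intron of the non-coding host gene Snhg18, was the largest difference of the class and is shown as its GENCODE M21 transcript (GRCm38), with capitals for the first TGATGA and the last CTGA, the letters of boxes C and D.
Snord123: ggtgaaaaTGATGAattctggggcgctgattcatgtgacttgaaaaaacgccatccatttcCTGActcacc
Read on the transcript strand, 73 of 97 Snord-named transcripts (75.3%) hold TGATGA followed by CTGA. Snord123 had 1.14, 13.3 and 66.8 CPM in liver and 58.4, 3742 and 7198 CPM in pancreas (log2 -7.40 ± 0.87, edgeR adjusted p = 7.7e-06). Pancreas was higher in 10 of 10 animals, and the tissues overlapped in Pancreas 13, which lay below Liver 5. The pancreas median was 268 CPM in the pool N541 against 3742 CPM in animals 1 to 5 and 5126 CPM in animals 6 to 9.

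Other snoRNAs differed less. Snord43, in an intron of the ribosomal protein gene Rpl3 and classed in the table as a miRNA, had 694, 6331 and 17322 CPM in liver and 2946, 18563 and 45502 CPM in pancreas (log2 -2.11 ± 0.56). Snord49a was -1.66 ± 0.38. Towards liver, Snord104 had 2377, 3979 and 5111 CPM in liver and 354, 664 and 1051 CPM in pancreas without overlap (log2 2.48 ± 0.33, edgeR adjusted p = 2.84e-05), and Snord66, within the translation initiation gene Eif4g1, was 2.30 ± 0.41. Gm24494, in an intron of Rabggtb, was 3.56 ± 0.45 without overlap.

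The most counted snoRNA, Gm26202, lies in an intron of the ribosomal protein gene Rpl17 and was very uneven, at 21357, 52079 and 433141 CPM in liver and 754, 8383 and 236804 CPM in pancreas. Its log2 difference was 2.69 ± 0.95 (edgeR adjusted p = 0.0285), with liver higher in the 8 animals of N467 and pancreas higher in the 2 of N541. In the unpaired fit of N541 alone the difference was -1.94 (edgeR adjusted p = 0.00365). In the paired fit of N467 alone it was 3.78 (edgeR adjusted p = 0.00193). Leaving out animal 1, 5 or 7 ended the call (edgeR adjusted p of up to 0.0537), as did library totals (0.0925).

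The direction of the cytosolic tRNA genes differed between the sets of animals, of which those within N467 were formed after seeing the data. Of 86 tested cytosolic tRNA genes, which the table gives by row number without names, 2 were higher in liver, 20 higher in pancreas and 64 passed neither call, with a median log2 difference of -0.19. The share higher in pancreas was near the 24.9% over all genes, and the share higher in liver was below the 25.7% over all genes. In animals 1, 2, 4 and 5 between 7 and 13 of the 86 had the higher level in liver, in animals 6 to 9 between 44 and 74, and in animals 12 and 13 they were 20 and 49. Fitted alone, animals 1, 2, 4 and 5 gave 1 tRNA gene higher in liver and 45 higher in pancreas (median log2 -1.77), and animals 6 to 9 gave 23 and 13 (median 1.32). Of 17 tested mitochondrial tRNAs, 7 were higher in liver, none higher in pancreas and 10 passed neither call, with a median of 1.01. These counts stand beside 25.7% higher in liver and 24.9% higher in pancreas over all genes. Under library totals 2 were higher in liver, and in animals 1, 2, 4 and 5 alone 2 of 14 tested were higher in liver and 1 higher in pancreas. The mitochondrial valine tRNA, mt-Tv, had 1735, 5164 and 30884 CPM in liver and 350.1, 1060 and 9631 CPM in pancreas (log2 1.79 ± 0.48, edgeR adjusted p = 0.00641) and was 1.19 under library totals (edgeR adjusted p = 0.12). These reads may be whole tRNAs or fragments, which the gene counts do not separate.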

How the data were processed

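Values are the deposited table of raw counts per small RNA gene and library, made by the authors; the submitters' processing notes name STAR 2.5.1, featureCounts and the builds mm10 and GRCm38. How featureCounts treated strand and reads with several matches is not given in the sources used here, and counts are per hairpin, so the 2 arms are not separated. Libraries were prepared from total RNA with a TruSeq small RNA kit and pooled before sequencing, per the labels' protocols. The table holds 6114 genes, of which 4624 had no count in these 24 libraries. Gene positions and hosts come from GENCODE M21, which matched 5682 names.

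Counts were filtered with filterByExpr (minimum count 10), scaled by TMM and fitted with edgeR 4.0.16 (R 4.3.3; quasi-likelihood F test, animal as a block, Benjamini-Hochberg over 334 genes). The replicate number is the animal, by the design of 14 individuals; deviations of same-numbered libraries correlated at -0.35 to 0.31, and 3 of 10 livers correlated best with their own pancreas. Scripts were tested on simulated counts. Printed levels use TMM factors over all 24 libraries; for genes with 0 to 3 counts in a tissue, pooled unscaled counts were used, with a floor of 3 counts. Intervals and floors cover counting error only. RNA class shares were tested by an exact sign-flip permutation test. DESeq2 1.42.0, other scalings and filters, pools and left-out animals were alternatives, and 2 sets of animals within N467, by library index number, were added after seeing the data.

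Genes were named by rule: the 12 largest called differences in each direction of at least 100 CPM with 1 sign in all animals by unscaled CPM, the 10 most counted genes of each tissue, members of key lists, up to 4 of each other list, and genes a small count turns on. Mir6969, Mir181b-1, Mir27a, Mir32, Mir92-2, Mir17, Mir18, Mir19a, Mir20a, Gm25395, Gm25443, Vaultrc5, Rn7s1 and Rn7s2 were named after their values were seen. The comparison and the lists were chosen with earlier results of these data known.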

Additional observations from a re-analysis of the deposited data

Results flagged for a closer look

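Pancreas 11, which entered no comparison, held 10255 counts and stood apart from the other pancreas libraries. Mir215 reached 81716 unscaled CPM there (838 counts), against at most 1.60 in the 11 pancreas libraries and 57.0 in liver. Mir192 reached 46611 CPM against at most 1949 in the other pancreas libraries, Mir194-1 19015 CPM against at most 21.7, and Mir194-2 1463 CPM against at most 86.6. The acinar genes Mir216a and Mir217 had 3 counts each, 293 CPM, below every other pancreas library, Mir375 had 1755 CPM, and Mir122 had no count.

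For Gm26202 and Gm25395 every matched animal of the pool N467 was higher in liver and both of N541 were higher in pancreas. In the unpaired fit of N541 alone their log2 differences were -1.94 and -0.44. The scaRNA share of counts split between the matched animals of the pools in the same way. The difference between the pools was not tested, and sex and pool cannot be told apart.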

How the results depend on the processing

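Genes higher in liver numbered 86 in the reported fit, 136 with no replicate block, 44 with library totals and 148 with no filter on low counts. Genes higher in pancreas numbered 83 and, with no filter, 125; fitting miRNA genes alone gave 50 where the reported fit has 45 miRNA genes. Over the paired alternatives that leave out 1 animal the counts ran from 69 to 96 and from 72 to 87. The fit with no replicate block called 85 of the 86 and 81 of the 83 again, and library totals, which shift the median over all genes by -0.63, called 44 and 83 of them. Without animals with a library under 50000 counts, 7 animals remained and the class share differences were misc_RNA -0.129 and scaRNA 1.27 percentage points, against -0.127 and 1.26; both adjusted exact permutation p were 0.109, and for misc_RNA the p of 0.0156 is the smallest that 7 animals can give, so this says nothing about stability.

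Of the 90 called genes named, 5 reversed under some setting, each in the pool N541 alone (unpaired, 4 liver and 2 pancreas libraries). These were Mir193a 0.29, Mir148b -0.29, Gm26202 -1.94, Scarna17 -0.069 and Gm25395 -0.44. Of genes not called, Mir150 was 1.89 in that pool, Mir148a was 0.19 in N467 alone, and Mir148a, Mir101a, Mir19a and Mir127 were 1.08, 0.41, 0.35 and 0.13 in animals 1, 2, 4 and 5 alone. With library totals the list medians of the Mir23, Mir24 and Mir27 clusters (-0.21), let-7 (-0.27), Mir17-92 and its paralogs (-0.55) and smooth muscle (-0.46) changed sign. Leaving out 1 animal ended the call of 12 named genes in at least 1 case. In animals 1, 2, 4 and 5 alone 18 of the 86 that could be tested lost their call, among them Mir10b, Mir152, Mir802, Mir182, Mir183 and Mir19b-1, and in animals 6 to 9 alone 13 of the 90 did; both were chosen after seeing the data. The cause was not tested. Depth limits genes below the filter, as Pancreas 13 held 13795 counts.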

Other observations

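The imprinted Dlk1-Dio3 cluster, a large miRNA domain expressed mainly in embryo, brain and some endocrine cells, was counted at low levels in both organs. Of 57 genes listed, 55 were in the table and 2 passed the filter. Mir541 was higher in pancreas (log2 -1.03 ± 0.37, edgeR adjusted p = 0.0325), and its call was lost in 6 of the 10 fits that left out an animal. Mir127 had 19.7, 39.1 and 409.9 CPM in liver and 76.9, 196 and 350.4 CPM in pancreas and passed neither call (log2 -1.60 ± 0.67, edgeR adjusted p = 0.06). Under library totals both genes were called higher in pancreas. Mir379, below the filter, had 0, 4.64 and 46 CPM in liver and 15.1, 35.2 and 292 CPM in pancreas. The neuronal Mir137 had 0, 10.3 and 38.6 CPM in liver and 0, 0 and 3.41 CPM in pancreas, while Mir138-1 had 0, 0 and 2.02 CPM in liver and 0, 34 and 60.1 CPM in pancreas; neither was tested.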
